A study of Sus scrofa and Rattus norvegicus with 6 samples.

Results

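The 7 mitochondrial messenger RNAs that encode subunits of respiratory complex I were described in cultured pig spinal cord cells. They are 7 of 62843 pig transcript models, in a series of 102946 pig and rat models in all. Each member was taken by its Ensembl transcript identifier and kept only if its model length lay within 10 bases of the length expected for its gene, and all 7 met that rule. The series holds 3 pig and 3 rat libraries, and the pig libraries are the ones used here. The cells came from wild-type adult pigs, from the region around the central canal of the spinal cord, and were expanded without serum as attached cultures on coated plates in neural progenitor medium with N2/B27, heparin, EGF and FGF2, with no treatment. All 3 pig libraries carry this same description, so there was no contrast between conditions within the pig samples. Separate animals or cultures are not named for them, so an SD or p-value here covers the scatter of these libraries alone and may be purely technical. The libraries were strand-specific, built from poly(A)-selected RNA, and sequenced as single-end reads of 150 bases. The labelled cell type was not checked against marker genes, because the files pair no transcript with a gene symbol.

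Complex I, or NADH:ubiquinone oxidoreductase, is the entry point of electrons from NADH into the respiratory chain and pumps protons across the inner mitochondrial membrane. Its ND subunits form the core of the membrane arm and are the ones encoded in mitochondrial DNA, while the remaining subunits are made from nuclear genes and imported. Mitochondrial DNA is transcribed from both strands as long precursors that are cut into separate RNAs, largely at the transfer RNAs that lie between the genes. ND6 is the one protein-coding gene read from the opposite strand to the others. Mitochondrial mRNAs carry short poly(A) tails, and in several genes the tail completes a stop codon that the DNA encodes only in part. In human cells the ND6 mRNA is known as the one that largely lacks such a tail.

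The models agreed in length with the mitochondrial gene set of pig RefSeq (assembly Sscrofa11.1). A run of 37 consecutive identifiers held the members, and 37 of these 37 models had exactly the length of the RefSeq mitochondrial gene in the same place of the genome order. The members were ND1 (ENSSSCT00000019660.4, 955 bases), ND2 (ENSSSCT00000019664.4, 1042 bases), ND3 (ENSSSCT00000019679.3, 346 bases), ND4L (ENSSSCT00000019681.2, 297 bases), ND4 (ENSSSCT00000019682.3, 1378 bases), ND5 (ENSSSCT00000019686.3, 1821 bases) and ND6 (ENSSSCT00000019687.1, 528 bases). ND1, ND2, ND3 and ND4 each had 1 base left over after whole codons. ND4L, ND5 and ND6 were multiples of 3, which is 3 of 7 members against 37.7% of all pig models. In RefSeq order ND4L is followed by ND4 and ND5 by ND6, and the genes of each of these pairs overlap. The other borders of the members in that order are transfer RNA genes. Mitochondrial positions are not printed, since the build behind the pig files is not named in the sources used here.

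The libraries were deep for these transcripts. Pig libraries 1, 2 and 3 held 37593182, 37554724 and 32211354 estimated counts, which are the reads that the quantifier Salmon assigned to transcript models. All 7 members had whole estimated counts in all 3 libraries (tolerance 1e-06), as did 17.5% of the detected pig transcripts. A transcript counts as detected where each of the 3 libraries gave it 1 TPM or more. TPM is a length-corrected level. It divides the estimated count of a model by its effective length, the number of places where a fragment could start, and TPM scales all models of a library to the same total. The 7 members together accounted for 2.22% ± 0.191 of all TPM and 0.862% ± 0.0901 of all estimated counts (SD, n = 3 libraries each). By TPM their share was 2.10% in library 1, 2.44% in library 2 and 2.13% in library 3. Because whole cultures were measured, fewer cells of a type and less RNA per cell cannot be told apart in these values.

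ND1, ND2, ND4 and ND5, the members longer than 600 bases, were present at close to the same level. ND1, which sits at the junction of the membrane arm with the quinone-binding part of the enzyme, measured 2826, 3390 and 3001 TPM in libraries 1, 2 and 3. Its mean was 3072 ± 289 TPM (SD, n = 3). ND2, one of 3 antiporter-like subunits with ND4 and ND5, measured 2904, 3499 and 3020 TPM, with a mean of 3141 ± 315 (SD, n = 3). The ranges of ND1 and ND2 overlapped, although ND2 was above ND1 in each library, by 0.03 ± 0.02 on the log2 TPM scale (SD, n = 3).

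ND4 stood at 2563, 3151 and 2752 TPM, and its mean was 2822 ± 300 TPM (SD, n = 3). ND5, at the far end of the membrane arm, stood at 2651, 2982 and 2461 TPM, with a mean of 2698 ± 264 (SD, n = 3). ND4 was above ND5 in 2 of 3 libraries, and this was the one pair of the 21 pairs of members whose order in TPM was not the same in all 3. From the highest to the lowest of these long members, ND2 to ND5, the means differed by a factor of 1.16, and within single libraries the highest and lowest of the long members differed by factors of 1.13 to 1.23.

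By estimated counts ND5 was the most read member, with 107864, 117759 and 79082 counts in libraries 1, 2 and 3. It took 32.7% ± 1.36 of the counts of the 7 members (SD, n = 3) and ranked 16 among all pig transcripts by mean count. ND4 ranked 23, ND2 ranked 43 and ND1 ranked 44 on the same list. In TPM these long members ranked 42, 40, 33 and 35 for ND5, ND4, ND2 and ND1.

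ND3 and ND4L, the short members, had the highest TPM and few counts. ND3, a small subunit whose loop lies near the quinone site, measured 3695, 3988 and 3334 TPM, or 3672 ± 328 on average (SD, n = 3). It held 9878, 10250 and 6944 estimated counts. ND4L, another small subunit of the membrane arm, measured 5653, 6791 and 6049 TPM, or 6165 ± 578 (SD, n = 3), from 7557, 8727 and 6299 estimated counts. ND4L was the highest member in every library, and its lowest value lay above the highest value of each other member. It ranked 16 among pig transcripts by mean TPM and 636 by mean count, and ND3 ranked 27 and 518.

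**Figure D1:**
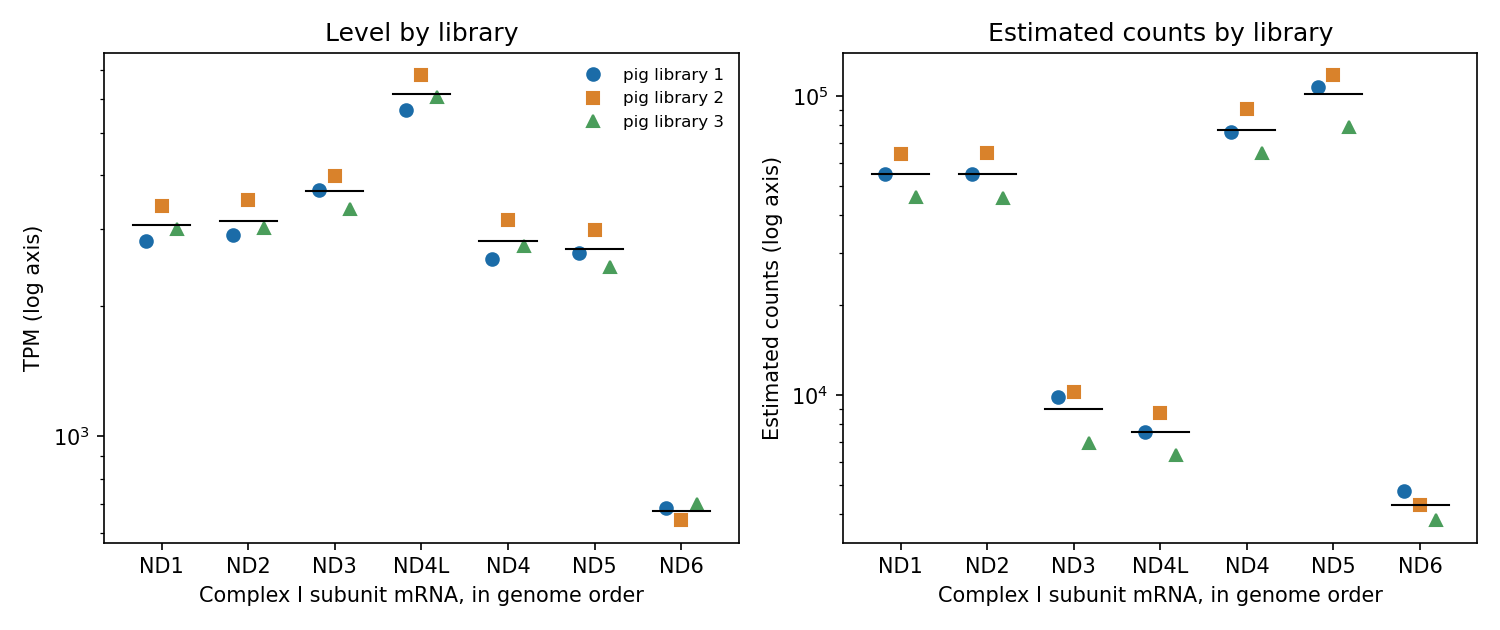
Level of each complex I subunit mRNA in pig libraries 1 to 3, as TPM (left) and estimated counts (right), both on log axes; points are single libraries and lines are means. ND4L is highest in TPM at 6165 on average, ND5 is highest in estimated counts, and ND6 is lowest in both panels.

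The order of the members in TPM, from ND4L through ND3, ND2, ND1, ND4 and ND5 down to ND6, was therefore clear at its ends and not in the middle. Of the 21 pairs, 13 had ranges over the 3 libraries that did not overlap. Neighbours in the order were apart for ND4L and ND3 and for ND5 and ND6. The ranges overlapped for ND3 and ND2, for ND2 and ND1, for ND1 and ND4, and for ND4 and ND5. No p-value is given for these pairs, since the order was read from the same values.

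The place of the short members depended on how length was treated. With estimated counts per kilobase of full model length, the order of 12 of the 21 pairs turned. Among them were pairs of long members, ND2 against ND1, ND4 and ND5, and the short pair ND3 and ND4L. The ranges of each of these pairs overlapped on that scale. The other turned pairs set a short member against a long one. On that scale ND1 had 57669 ± 9472, ND4 had 56002 ± 9553, ND5 had 55776 ± 11034 and ND2 had 52985 ± 9151 counts per kilobase (SD, n = 3 each). ND3 had 26081 ± 5234 and ND4L had 25346 ± 4088 counts per kilobase (SD, n = 3 each). Both thus fell from the top of the order to places below every long member, and ND6 stayed last with 8138 ± 907 (SD, n = 3). With counts per kilobase of length minus 250 bases, the order turned for 1 pair, ND1 and ND2.

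ND4L and ND4 show this most directly, since their genes overlap and mammalian mitochondria are known to keep them on a shared mRNA. In TPM, ND4L was above ND4 by 1.13 ± 0.02 on the log2 scale (SD, n = 3), or 2.19-fold, in 3 of 3 libraries. In estimated counts per kilobase of full length, ND4L was below ND4 by a log2 difference of -1.14 ± 0.02 (SD, n = 3), or 2.21-fold, again in 3 of 3 libraries. The ratio was therefore steady between libraries on each scale, while its direction changed with the scale.

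**Figure D2:**
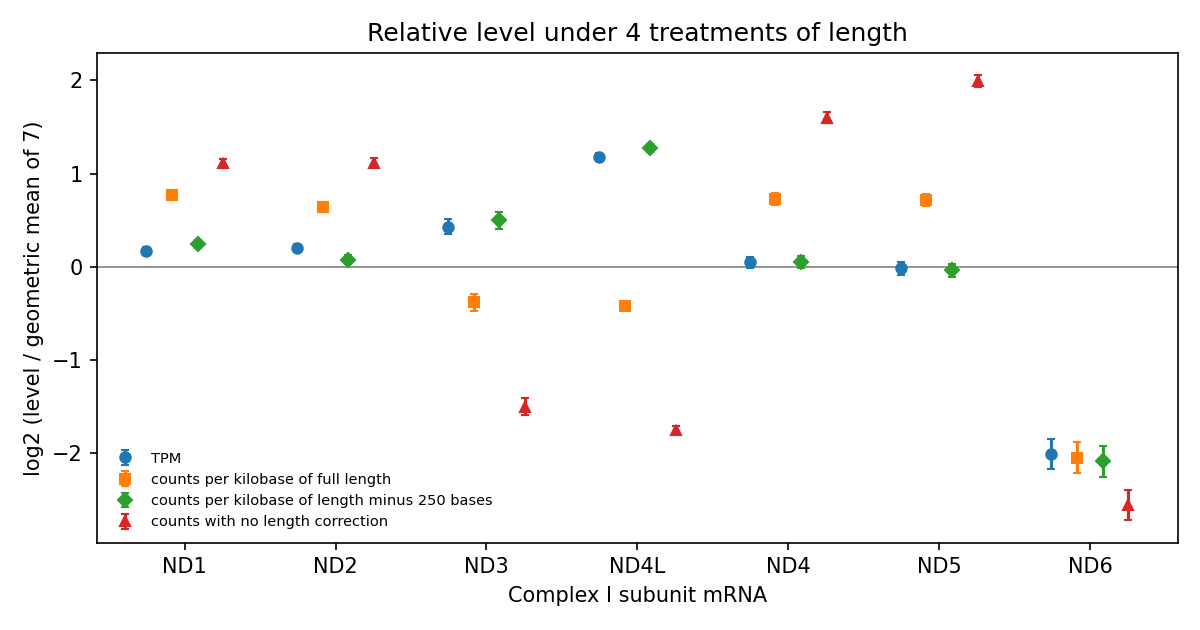
Level of each member relative to the geometric mean of the 7, in log2 units, under 4 treatments of length; points are means and bars are SDs over 3 pig libraries. ND3 and ND4L lie above 0 in TPM and below 0 per kilobase of full length, while ND6 lies near -2 in TPM and per kilobase on either length.

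The deposited effective lengths set what a read is worth in TPM. The effective length of ND4L was 48 bases in every library and that of ND3 was 96 bases, so that 1 read added between 0.748 and 0.960 TPM to ND4L, depending on the library, and between 0.374 and 0.480 TPM to ND3. For ND5, 1 read added 0.0246 to 0.0311 TPM. ND4L lost 249 bases from its full length and ND3 lost 250. These values were the usual ones for their size, as 9 of the 10 pig models of 297 bases and 6 of the 7 models of 346 bases had the same effective length as the member.

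Among the other members the effective length was often smaller than in models of like size. ND2 had effective lengths of 683, 691 and 697 bases in libraries 1, 2 and 3, where the median of the 259 pig models within 10 bases of its length was 790.0 to 792. Between 1.16% and 1.54% of those models had a lower effective length than ND2. ND5 lost 360, 346 and 340 bases, and 10.3% to 11.1% of models of like length had a lower effective length. ND4 lost 311, 302 and 297 bases, and 8.49% to 8.88% of models of like length were lower. ND1 was ordinary, with a loss of 254, 249 and 249 bases. Low values were not confined to the members. COX2, a mitochondrial mRNA compared with them below, had effective lengths of 389, 393 and 395 bases in libraries 1, 2 and 3. The median of models of like length was 439 to 440. The percentage of such models that were lower was 2.94% to 3.53% for ATP6, 11.7% to 13.7% for COX1 and 5.88% to 21.2% for COX3. It was 22.6% to 46.0% for CYTB and 31.8% for ATP8. A lower effective length raises the TPM that a given count yields, for these mRNAs as for the members. Of the scales tried, the long members were closest to each other per kilobase of full length. On that scale the highest mean was 1.09 times the lowest.

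ND6 also had a low effective length, 251 bases in all 3 libraries, and 0% of the 156 pig models within 10 bases of its length had a lower one. Their median was 278 to 279 bases. A read of ND6 therefore counted for more TPM than a read of a model with the median effective length.

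**Figure D3:**
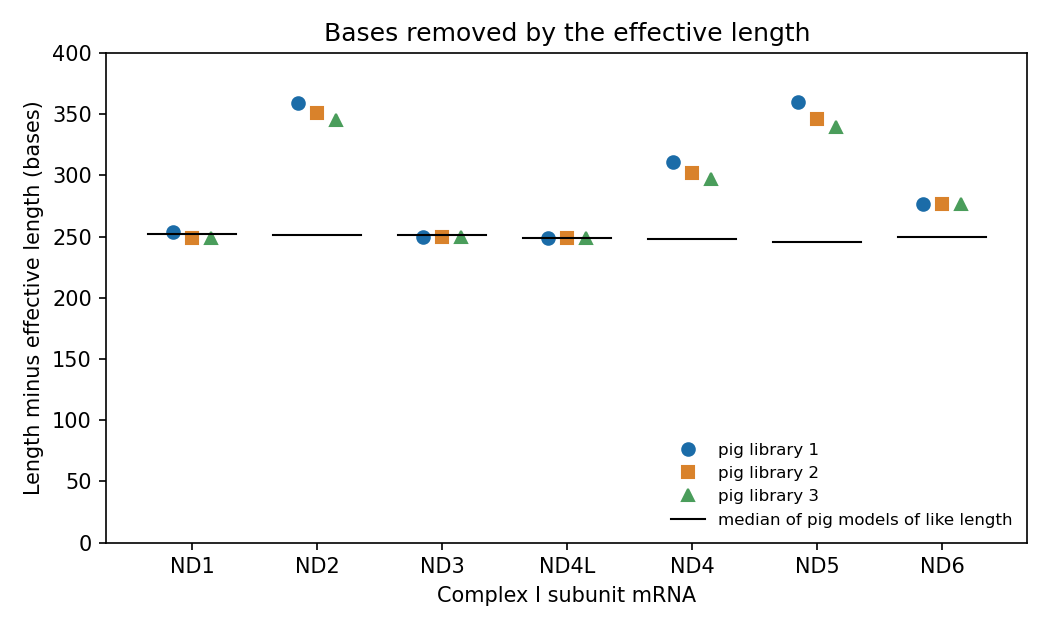
Bases by which the deposited effective length falls short of the model length, for each member in 3 pig libraries (points), with the median of pig models within 10 bases of the same length (lines). ND2, ND4, ND5 and ND6 lie above their lines, with ND2 at 345 to 359 bases, and ND1, ND3 and ND4L lie near theirs.

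ND6, the subunit read from the opposite strand, was the least abundant member. It encodes a core subunit of the membrane arm that lies beside ND3 and ND4L. It measured 683, 641 and 700.2 TPM in libraries 1, 2 and 3, with a mean of 675 ± 30.4 (SD, n = 3). All 3 values lay below every value of every other member. Its estimated counts were 4771, 4307 and 3813. Even the smallest of these has a 95% exact Poisson interval of 3693 to 3936 counts, which covers counting error only and treats reads as independent molecules. ND6 ranked 172 by mean TPM and 1311 by mean count among pig transcripts.

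The median of the other 6 members was 2865, 3444 and 3011 TPM in libraries 1, 2 and 3. The log2 ratio of ND6 to that median was -2.07, -2.43 and -2.10, with a mean of -2.20 ± 0.20 (SD, n = 3), which is 4.59-fold lower. The direction was the same in 3 of 3 libraries. The exact two-sided sign-flip permutation test gave p = 0.25 (adjusted p = 0.25 over 2 tests, Benjamini-Hochberg), the smallest p that 3 libraries allow, so this design cannot pass 0.05.

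Against ND5 alone, its overlapping neighbour, the log2 ratio was -1.996 ± 0.21 (SD, n = 3). Per kilobase of full length the ratio to the median of the other 6 was larger, at -2.71 on the log2 scale. In estimated counts ND6 made up 1.40% ± 0.182 of the reads of the 7 members (SD, n = 3), with 1.51% in library 1, 1.19% in library 2 and 1.51% in library 3. ND6 therefore remained lowest on each scale of length that was tried. The libraries were selected for poly(A), and tail length was not measured, so its part in the ND6 values was not tested. Whether the quantification used the strand of the reads is not given in the sources used here, and without it reads from ND6 and from RNA of the other strand cannot be told apart.

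ND6 also differed from the other members in which library was high. ND1, ND2, ND3, ND4L, ND4 and ND5 had their highest TPM in library 2, and ND6 had its lowest there. CYTB, a mitochondrial mRNA outside the members, was also not highest in library 2. It measured 1660, 1872 and 2404 TPM in libraries 1, 2 and 3. Library 2 was the highest of the 3 for 28.9% of detected pig transcripts and the lowest for 29.2%, against 6 of 7 and 1 of 7 members. As a share of estimated counts, ND5 took 0.287%, 0.314% and 0.246% of libraries 1, 2 and 3. ND6 took 0.0127%, 0.0115% and 0.0118%. Library 2 stayed the highest for the same 6 members, and the lowest for ND6, when each library was scaled by the median deviation of its detected transcripts. Those median deviations were -0.07, -0.01 and 0.08 on the log2 TPM scale in libraries 1, 2 and 3. The place of the other libraries depended on scaling. In TPM, library 1 was the lowest for 4 members and for 44.4% of detected transcripts, and the highest for 0 members and 21.2%. Library 3 was the lowest for 2 members and 26.4% of detected transcripts, and the highest for 1 member, ND6, and 49.9%. After the scaling, library 3 was the lowest for 6 members and ND6 was highest in library 1. Transcripts read from the same strand of the mitochondrial genome share their precursors, so the 6 members other than ND6 are not independent of each other. The library pattern of ND6 and of these 6 rests on 3 libraries with no test.

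The differences between libraries were small for every member. The highest TPM was 1.09 times the lowest for ND6 and 1.196 to 1.23 times the lowest for the others. No member (0 of 7) reached a factor of 1.5, which 36.9% of the 17631 detected pig transcripts did. Among the 1049 pig transcripts with a mean TPM of at least 100, 18.2% reached it. The median of the highest over the lowest TPM was 1.201 over the 7 members, 1.23 over those abundant transcripts and 1.36 over all detected ones. The low spread of the members was thus close to that of other abundant transcripts.

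**Figure D4:**
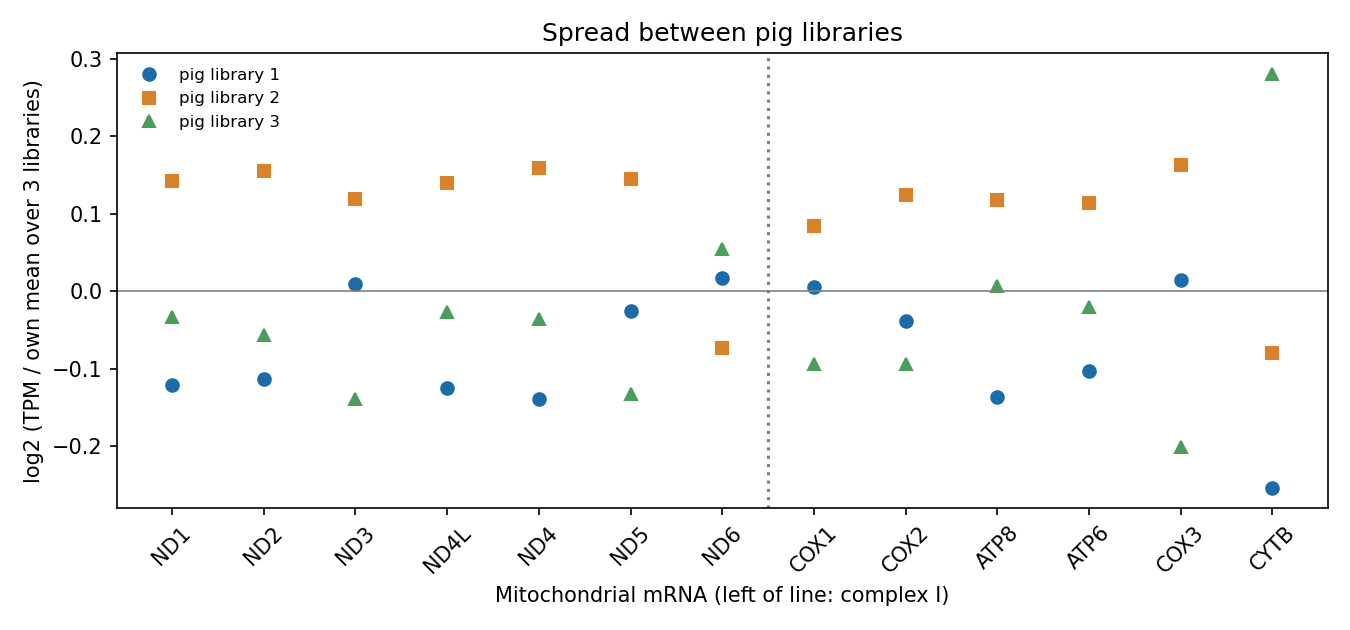
TPM of each mitochondrial mRNA relative to its own mean over the 3 pig libraries, on a log2 scale; points are single libraries, and the dotted line separates complex I mRNAs (left) from the others (right). Library 2 is highest for 6 of the 7 complex I mRNAs and lowest for ND6; CYTB is the other mRNA that is not highest in library 2.

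The profile over libraries was compared with that of the 1042 other pig transcripts with a mean TPM of at least 100 and a value above 0 in each library. The measure was the Euclidean distance between log2 TPM values, each taken relative to the transcript's own mean, from the median profile of the members over 3 libraries. The closest were ENSSSCT00000023268.3, a model of 4646 bases with 105, 126 and 111 TPM and a distance of 0.005, and ENSSSCT00000003960.4, a model of 1389 bases with 156, 182 and 161 TPM and a distance of 0.030. ATP6, which encodes a subunit of ATP synthase, was the third closest, with a distance of 0.034. The other mitochondrial mRNAs were spread over the ranking, with ATP8 at 9, COX2 at 29, COX1 at 85, COX3 at 210 and CYTB at 698. The members ND3, ND5 and ND6 lay at distances of 0.161, 0.130 and 0.268 from the median profile, further than ATP6. With 3 libraries such likeness is a description of a few numbers.

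The members were lower than most of the other mitochondrial mRNAs. The comparison set was COX1, COX2 and COX3 of cytochrome oxidase, ATP6 and ATP8 of ATP synthase, and CYTB of the cytochrome bc1 complex. The median TPM of the 7 members was 2826, 3390 and 3001 in libraries 1, 2 and 3, and that of the 6 others was 14098, 15219 and 13231. The log2 ratio was -2.32, -2.17 and -2.14, or -2.21 ± 0.10 on average (SD, n = 3), which is 4.62-fold lower and in the same direction in 3 of 3 libraries. The exact two-sided sign-flip permutation test gave p = 0.25 (adjusted p = 0.25 over 2 tests), again the smallest p possible. The 7 members made up 14.7% ± 0.218 of TPM and 23.1% ± 0.642 of the counts over all 13 mRNAs (SD, n = 3 each). ATP8, a model of 204 bases with an effective length of 9 bases, alone measured 68880 ± 6047 TPM (SD, n = 3), and 1 read added 3.99 to 5.12 TPM to it. Its place above the members depended on the length treatment. ND1 was below ATP8 by a mean log2 difference of -4.49 in TPM and -0.42 per kilobase of full length. On that second scale the range of ATP8 overlapped with that of ND1 and of no other member. Without length correction ND1, ND2, ND4 and ND5 were above ATP8 in 3 of 3 libraries, and ND3, ND4L and ND6 were below. Without ATP8 the members made up 27.1% ± 0.517 of TPM and 23.4% ± 0.660 of the counts (SD, n = 3 each).

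CYTB was the exception within that set in TPM. It measured 1660, 1872 and 2404 TPM, below ND1, ND2, ND3, ND4L, ND4 and ND5 in each of the 3 libraries and above ND6 in each. The median member was above CYTB by 0.65 on the log2 TPM scale. The ranges of CYTB and of each member did not overlap, but ND5 and CYTB came close in library 3, at 2461 and 2404 TPM. Per kilobase of full length ND3 and ND4L were below CYTB in 3 of 3 libraries, with log2 differences of -0.58 and -0.61. COX1, by contrast, was above every member in every library, from a mean log2 difference of -1.33 for ND4L against COX1 to -4.52 for ND6 against COX1 in TPM. ND6 and CYTB are read from opposite strands and are separated by a transfer RNA gene in RefSeq order. The log2 ratio of ND6 to CYTB was -1.54 ± 0.25 in TPM (SD, n = 3), or 2.90-fold lower. Per kilobase of full length it was -2.25 ± 0.25 (SD, n = 3), or 4.74-fold lower.

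The transfer RNA models in the run of 37 identifiers that holds the members had almost no reads. Of the 22 transfer RNA models in the run, 21 had 0 reads in each of the 3 libraries, and 1 had 10 reads in library 1, 0 in library 2 and 3 in library 3. Each of these models is shorter than the 150-base reads. Few reads could be assigned to such short models by design, so their low counts carry no information on the members.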

How the data were processed

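RNA from 3 pig libraries was analysed, and of the 3 rat libraries only the number of models was counted. Quantification by the authors used Salmon with models of Ensembl 104, per the design text of the series, and the submitters' processing notes give Salmon's version as 1. The deposited TPM and the deposited estimated counts (which need not be whole), lengths and effective lengths are named per the file headers. Salmon's settings, its strand option and the pig build were not given in the sources used here, as the build that the submitters' notes list for the pig samples, rn6, is a rat build. Members were read by identifier and length. The members and lists were chosen with earlier results of these data known. The other 6 mitochondrial mRNAs were matched by identifier and RefSeq length. The rule for named genes took the 7 members, those 6, and the 2 transcripts of mean TPM of at least 100 closest to the members' median profile. The planned 37 nuclear complex I genes and the cell type markers have no result, since 0 pig transcript identifiers matched a gene-name table. No protein or nucleotide sequence was used here. Values are means and SDs, and within-library log2 ratios were tested by exact sign-flip permutation. Tools were Python 3.11.15, pandas 2.3.3, numpy 2.4.6, scipy 1.17.1 and matplotlib 3.10.9. The count of transcripts apart between libraries was tested on simulated data with counting noise alone. In it, 200 of 200 transcripts changed by a factor of 3 were found among 9768, with 0 false calls. Only transcripts with many expected reads were simulated, whereas the detected transcripts numbered 17631. The simulation therefore does not give the rate of false calls among the detected transcripts. Alternatives changed the length treatment, the comparison set, the filter, the scaling or left out 1 library.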

Additional observations from a re-analysis of the deposited data

How the results depend on the processing

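ND6 stayed below the other members under each alternative, from -3.67 on the log2 scale without length correction to -1.996 against ND5 alone, and from -2.27 to -2.09 without 1 library. The gap to single short members could be smaller. Without length correction ND6 was 1.74-fold below ND4L and 2.08-fold below ND3, in 3 of 3 libraries each. The median of the members stayed below that of the other mitochondrial mRNAs, from -2.33 against COX1 alone to -1.41 without length correction. Without 1 library the ratio was -2.24 to -2.15. The exception was against CYTB alone, where the ratio reversed to 0.65. The comparisons with ATP8 left out, with COX1 and with CYTB were chosen after seeing the data. The members' share was 0.862% in estimated counts. Rescaling TPM without models under 300 bases drops ND4L, and the remaining 6 members held 1.84%, against 1.61% before the rescaling. The share of all 7 members in TPM was 2.22%, and 2.11% to 2.29% without 1 library. The number of pairs in the same order in each library was 20 of 21, 17 per kilobase of full length, 20 on the other scales of length, and 20 or 21 without 1 library. The members' share of the mitochondrial mRNAs moved from 14.7% to 27.1% of TPM without ATP8, also chosen after seeing the data. Relative to the geometric mean of the members, ND3 reversed from 0.43 to -0.38 per kilobase of full length and -1.504 without length correction. ND4L reversed from 1.18 to -0.42 and -1.76, and ND5 from -0.02 to 0.71 and 1.99 on the same scales, and its range without 1 library was -0.039 to 0.023, with the positive value without library 3. The number of detected transcripts reaching a factor of 1.5 between libraries was 6506 of 17631 (36.9%). It became 2461 of 17631 (14.0%) at a factor of 2, 191 of 1049 (18.2%) at a mean TPM of at least 100 and 12675 of 24710 (51.3%) with TPM above 0. Without 1 library it was 2783 of 18359 (15.2%) without library 3, 4275 of 18470 (23.1%) without library 1 and 4795 of 18417 (26.0%) without library 2, where a pair has less room to differ than 3 libraries. The count of members stayed at 0 of 7 under each of these. No paired analysis was possible because the pig libraries form 1 group, and no result compares them with the rat libraries of the same replicate numbers. ND6 had the fewest counts of the members, and the counting interval of its shallowest library, 3693 to 3936, was narrow beside its distance from the other members.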
